A study of Mus musculus with 16 samples.

Results

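Amino acid transporters were followed as a set of gene families in mouse bone marrow-derived macrophages. The members are the protein-coding genes whose GENCODE M21 symbol starts with Slc1a, Slc3a, Slc6a, Slc7a, Slc36a, Slc38a or Slc43a, which gave 64 of the 54532 genes in the deposited tables. They comprised 7 genes of Slc1a, 2 of Slc3a, 21 of Slc6a, 16 of Slc7a, 4 of Slc36a, 11 of Slc38a and 3 of Slc43a. Slc7a6os, a neighbour of Slc7a6 named for lying on the opposite strand, carries such a symbol and was counted, although it is not a transporter.

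Macrophages were grown from marrow with M-CSF, the macrophage growth factor, for 7 days in medium with 2 mM glutamine, and then cultured for 24 h. The culture was either left plain or given 70% TCM, medium taken from tumour cells, here those of the mouse melanoma line YUMM1.7. RNA of 16 libraries in 5 groups was sequenced. TRAP1 KO TCM (n = 4) came from mice without TRAP1, a mitochondrial chaperone of the HSP90 family. JMJD3 cKO TCM (n = 3) came from mice with a conditional knockout of JMJD3, a histone H3 lysine 27 demethylase encoded by Kdm6b, and JMJD3 WT TCM (n = 3) from wild-type mice of that line. WT TCM (n = 3) and WT naive (n = 3, no TCM) were wild type in the TRAP1 set. The sources used here give neither the Cre driver of the conditional allele, nor the ages of the mice, nor whether replicates were separate mice or cultures. A p-value therefore reflects only how far libraries of a group spread, and that spread may be technical.

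Amino acids cross membranes on carriers that differ in substrate and in coupling. Light chains of the SLC7 family pair with a heavy chain of the SLC3 family and exchange 1 amino acid for another, while SLC38 and most SLC6 carriers use the sodium gradient and SLC36 carriers use protons. Shortage of amino acids is sensed through the kinase GCN2 and the transcription factor ATF4, which raises transporter and synthesis genes, and through the lysosomal complexes that control mTORC1. In macrophages the supply of arginine feeds both arginase and nitric oxide synthase, and the uptake of cystine feeds glutathione.

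Library totals were 15361604 to 22426820 counts. Levels are given in CPM, the count scaled by library total and TMM factor, with the SD between libraries of a group. Trap1 was at 0.0377 ± 0.0253 CPM in TRAP1 KO TCM, 3 counts in all, and at 67.7 ± 5.52 CPM in WT TCM. Kdm6b had 25.6 ± 1.02 CPM in JMJD3 cKO TCM, against 25.1 ± 1.69 CPM in JMJD3 WT TCM (log2 fold change 0.04, 95% interval -0.11 to 0.18), and whole-gene counts cannot show whether part of the gene was deleted. Xist was at 919 CPM in JMJD3 cKO TCM and 845 CPM in JMJD3 WT TCM, against at most 1 count in each other group, and Ddx3y of the Y chromosome had 0 counts in the JMJD3 line and 85.2 to 87.2 CPM elsewhere. Line and sex therefore cannot be told apart. All 8 macrophage markers had counts in every group, with sums of 12818 to 26832 CPM per library. Fewer cells of a type and less RNA per cell cannot be told apart in such bulk samples.

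Among the 64 members, 22 had a mean of at least 5 CPM over the 16 libraries, 3 had 1 to 5 CPM and 39 had less than 1 CPM. There were 11 with 0 counts in all 16 libraries, which allows up to 0.00987 CPM each at 3 counts in all. They were Slc1a7, Slc6a3, Slc6a5, Slc6a11, Slc6a14, Slc6a15, Slc6a18, Slc6a21, Slc7a9, Slc7a10 and Slc38a5. A test needs enough counts, and 35 members, with at most 59 counts over all libraries, passed the filter of no comparison. The remaining 29 passed in at least 1. A member can pass through the group in which it is high, so counts over tested members do not stand for all 64. None of the 5 high-affinity glutamate and aspartate carriers was tested, and Slc3a1, the heavy chain of the kidney and intestine, had 26 counts in all and overlaps Prepl, on the other strand, at 20.6 CPM.

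To compare genes, levels were divided by exon length. The taurine carrier Slc6a6 was highest at 157 CPM per kb over all libraries. It was followed by Slc3a2, the heavy chain 4F2hc (CD98), at 123 CPM per kb and by Slc7a8, the light chain LAT2 for neutral amino acids, at 83.0 CPM per kb. The creatine carrier Slc6a8 was at 41.9 CPM per kb and the leucine and phenylalanine carrier Slc43a2 at 39.0 CPM per kb. The other light chains were lower on this scale. Slc7a7 (y+LAT1), which exports arginine and lysine in exchange for neutral amino acids, was at 23.7 CPM per kb, and Slc7a5 (LAT1), which takes up large neutral amino acids, at 7.96 CPM per kb. Slc7a6 (y+LAT2) was at 1.93 CPM per kb and the cystine and glutamate exchanger Slc7a11 (xCT) at 0.113 CPM per kb.

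**Figure D1:**
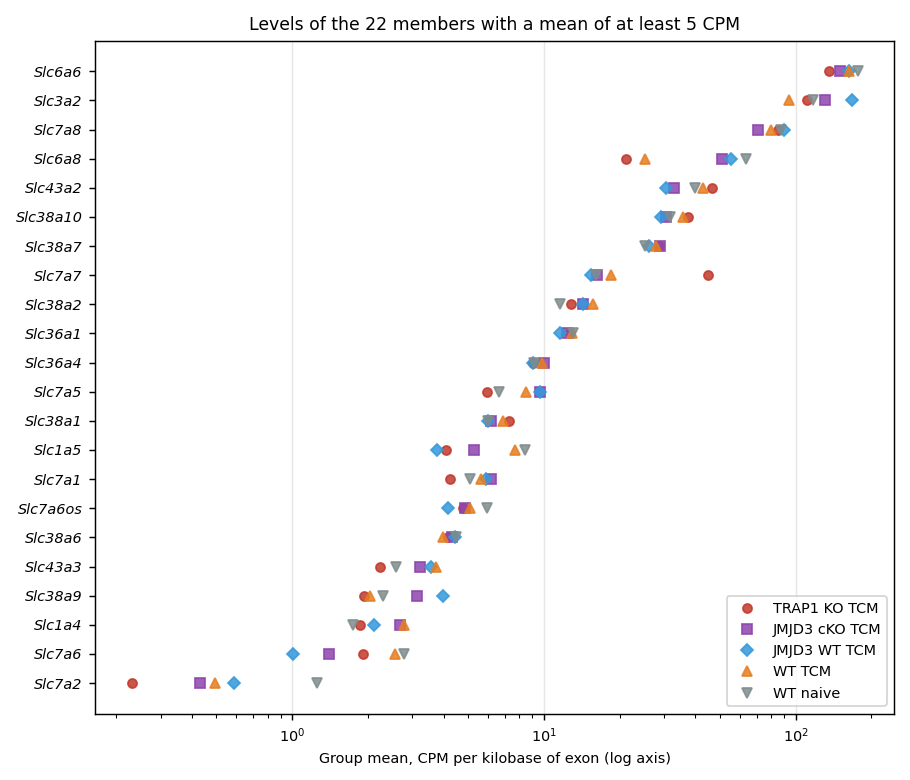
Group means of the 22 members with a mean of at least 5 CPM, in CPM per kilobase of exon on a log axis, with 1 symbol per group. The order of the genes spans Slc6a6 at 157 CPM per kb to Slc7a2 at 0.576 CPM per kb over all libraries, and Slc7a7 in TRAP1 KO TCM (45.1 CPM per kb) and Slc6a8 in TRAP1 KO TCM and WT TCM (21.3 and 25.2 CPM per kb) lie away from the other groups of their gene.

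WT TCM against WT naive shows what melanoma medium did to the transporters of wild-type macrophages. Of 28 members tested, 12 rose and 9 fell, where 42.2% of all genes tested were called, 21.6% higher and 20.6% lower (edgeR's quasi-likelihood test, Benjamini-Hochberg adjusted p under 0.05). At an absolute log2 fold change of at least 0.5, 4 rose and 3 fell, where 12.9% of all genes did either. The 3 that fell were the creatine carrier Slc6a8, the arginine carrier Slc7a2 and Slc7a15, and the 4 that rose were Slc7a11, Slc7a4, the ASCT1 gene Slc1a4 and Slc43a3. The median log2 fold change was 0.05 over the tested members and -0.01 over all genes.

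Slc6a8 (chromosome X, 73673150 to 73682502, GRCm38), the sodium-coupled carrier that loads cells with creatine, was at 132, 135 and 128 CPM in WT TCM, against 335, 337 and 322 CPM in WT naive. Each WT TCM library lay far below each WT naive library (log2 fold change -1.33, SE 0.03, adjusted p = 4.2e-62). Slc7a2 (chromosome 8, 40862396 to 40922308), the arginine and lysine carrier CAT2 of activated macrophages, was at 3.78, 5.24 and 4.44 CPM in WT TCM, against 11.2, 12.2 and 11.2 CPM in WT naive. The groups did not overlap (-1.36, SE 0.14, adjusted p = 2.3e-15). The constitutive arginine carrier Slc7a1 (CAT1) was at 64.6 ± 3.57 CPM in WT TCM and 58.6 ± 2.69 CPM in WT naive (0.14). Its call did not hold without WT TCM replicate 2 (adjusted p = 0.126) or WT naive replicate 3 (adjusted p = 0.0778). Slc7a4, a relative of these carriers, was at 4.09 ± 0.243 CPM in WT TCM and 2.34 ± 0.954 CPM in WT naive (0.80, SE 0.19, adjusted p = 0.00020).

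The heteromeric exchangers moved in both directions. The heavy chain Slc3a2 fell to 333 ± 1.32 CPM in WT TCM, against 414 ± 5.14 CPM in WT naive (-0.32, SE 0.02, adjusted p = 1.4e-25). The light chain Slc7a5 (chromosome 8, 121881150 to 121907694) was at 29.7, 33.5 and 31.4 CPM in WT TCM and at 25.4, 24.7 and 23.9 CPM in WT naive, higher in each WT TCM library than in any WT naive library (0.35, SE 0.06, adjusted p = 2.5e-06). Slc7a7 rose by a small amount (0.20), Slc7a8 fell (-0.14), and Slc7a6 was not called (-0.12, 95% interval -0.31 to 0.07). Slc7a11 (chromosome 3, 49892526 to 50443614) was at 2.42, 1.99 and 2.09 CPM in WT TCM, against 0.506, 0.516 and 0.896 CPM in WT naive, 117 counts against 42. It had the largest fold change among the tested members (1.76, SE 0.30, 95% interval 1.17 to 2.36, adjusted p = 1.0e-07), at a low level, and its groups did not overlap. Slc7a15, the other called light chain, was at 1.76 ± 0.114 CPM in WT TCM and 3.04 ± 0.104 CPM in WT naive (-0.78).

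Among carriers of small neutral amino acids, Slc1a4 (chromosome 11, 20302180 to 20332713), which exchanges alanine, serine and cysteine, was at 9.89, 11.6 and 11.3 CPM in WT TCM, against 5.70, 7.27 and 7.54 CPM in WT naive. All WT TCM libraries were higher (0.67, SE 0.12, adjusted p = 8.6e-07). The glutamine exchanger Slc1a5 (ASCT2) was at 31.9 ± 0.796 CPM in WT TCM and 32.7, 33.1 and 39.0 CPM in WT naive and was not called (-0.13, 95% interval -0.26 to -0.00, adjusted p = 0.089). Without WT naive replicate 1 it was called as lower (-0.17, adjusted p = 0.0413). Slc38a2 (SNAT2), the glutamine and alanine carrier that cells raise when amino acids are short, rose to 139 ± 3.13 CPM in WT TCM, against 102 ± 4.21 CPM in WT naive (0.44, SE 0.03, adjusted p = 7.9e-22). Of the 6 tested SLC38 genes 4 rose, Slc38a2 with Slc38a1 (0.20), Slc38a7 of lysosomes (0.15) and Slc38a10 (0.17), and 2 fell, Slc38a6 (-0.18) and Slc38a9 (-0.17). Slc38a9, the arginine sensor of the lysosome, lost its call without WT naive replicate 1 (adjusted p = 0.0698). Slc43a3, known as a purine nucleobase carrier, was at 16.1, 16.4 and 17.6 CPM in WT TCM, all above the 11.6, 11.6 and 11.5 CPM in WT naive (0.52, SE 0.09, adjusted p = 7.4e-07). Slc43a2 rose (0.10), Slc6a6 fell (-0.12), and the lysosomal proton-coupled carriers Slc36a1 (-0.01) and Slc36a4 (0.10) were not called, the last being called without WT naive replicate 1 (adjusted p = 0.0379), with RLE scaling and with the replicate block (adjusted p = 0.0444 each). Slc7a6os fell (-0.23), but was not called without WT TCM replicate 2 (adjusted p = 0.0563).

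Markers of other cells moved in the same comparison. Neutrophil markers summed to 7.80 to 9.71 CPM in WT TCM and 59.3 to 63.2 CPM in WT naive, with 7 of 7 tested genes lower. Fibroblast markers summed to 0.166 to 0.404 CPM in WT TCM, where Col3a1, Dcn and Pdgfra had 0 counts, and to 13.3 to 14.4 CPM in WT naive, with 3 of 3 tested genes lower. The sum of the T cell markers went the other way, with 28.4 to 29.9 CPM in WT TCM and 14.9 to 15.6 CPM in WT naive, and 1 of 1 tested gene was higher. The list did not move as a whole. Cd3d, Cd3e and Cd8a had 0 counts in WT TCM, while all T cell markers had counts in WT naive. Macrophage markers summed to 26385 to 26832 CPM in WT TCM and 15805 to 16015 CPM in WT naive, with 5 of 8 genes higher and 3 lower. The part of these markers in the transporter values was not tested. Melanocyte markers summed to at most 0.482 CPM in any library, with Tyr and Tyrp1 at 0 counts throughout.

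**Figure D2:**
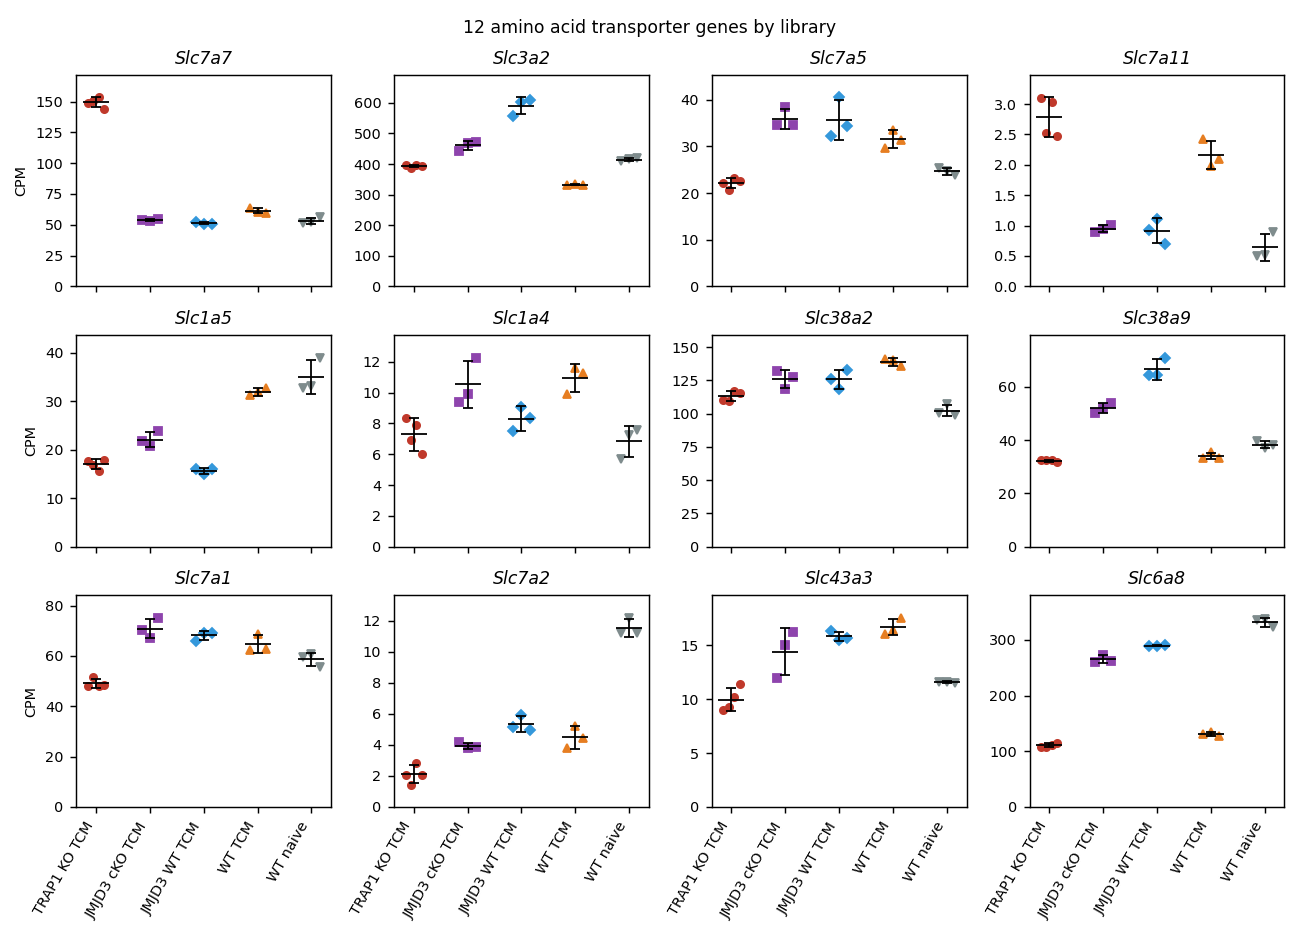
CPM of 12 members in each of the 16 libraries, 1 point per library with the group mean and SD, each panel on its own axis from 0. Slc7a7 was at 144 to 154 CPM in the 4 TRAP1 KO TCM libraries and at most 63.8 CPM in any other library, and Slc6a8 was at 107 to 135 CPM in TRAP1 KO TCM and WT TCM and at least 260 CPM in the other 3 groups.

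TRAP1 KO TCM was set against WT TCM, to see what differed under the same medium without the chaperone. This comparison and the one above share the WT TCM libraries. Of 28 members tested, 8 rose and 11 fell, where 42.2% of all genes were called (21.2% higher and 21% lower). At an absolute log2 fold change of at least 0.5, 3 rose and 5 fell, where 12.6% of all genes did either. The 3 that rose were Slc7a7, Slc7a4 and, at a low level, Slc6a20b. The 5 that fell were Slc1a5, Slc1a4, Slc7a5, Slc7a2 and Slc43a3. The median log2 fold change was -0.08 over the tested members and 0.01 over all genes.

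Slc7a7 (ENSMUSG00000000958, chromosome 14, 54369442 to 54417780, minus strand) was at 149, 151, 154 and 144 CPM in TRAP1 KO TCM, against 63.8, 60.2 and 59.97 CPM in WT TCM. The groups stood far apart, at a fold of 2.45 (SE 0.03 of the log2 fold change of 1.29, 95% interval 1.22 to 1.36, adjusted p = 6.3e-53). The heavy chain Slc3a2, with which y+LAT1 pairs, was at 396, 388, 396 and 394 CPM in TRAP1 KO TCM, all above the 331, 334 and 333 CPM in WT TCM (0.25, SE 0.02, adjusted p = 7.7e-21). The related light chain Slc7a6 moved the other way, with 8.71 ± 0.259 CPM in TRAP1 KO TCM and 11.7 ± 0.517 CPM in WT TCM (-0.42, SE 0.10, adjusted p = 0.00014). Slc7a5 was at 22.1, 20.7, 23.2 and 22.6 CPM in TRAP1 KO TCM, against 29.7, 33.5 and 31.4 CPM in WT TCM. Every knockout library was lower (-0.50, SE 0.06, adjusted p = 3.0e-11). The light chain Slc7a8 rose slightly (0.10, adjusted p = 1.7e-06). Slc7a11 was at 2.78 ± 0.329 CPM in TRAP1 KO TCM and 2.17 ± 0.227 CPM in WT TCM and was not called (0.36, 95% interval -0.06 to 0.78, adjusted p = 0.16).

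Slc7a7 lies among many genes that changed in this comparison. In the window of chromosome 14 from 50 to 55 Mb, 17 of the 55 other genes tested were called with a change of at least 2-fold (30.9%), against 5.58% of all genes. In JMJD3 cKO TCM against JMJD3 WT TCM, 0 of the 55 were, against 2.21% of all genes, and in WT TCM against WT naive 8 were (14.5%), against 5.27% of all genes. Among the neighbours within 2.5 Mb, the matrix metalloproteinase gene Mmp14, 13.8 kb away, rose (0.90) and the proteasome subunit gene Psmb5 fell (-1.23). The mitochondrial insertase gene Oxa1l, which overlaps Slc7a7 on the opposite strand, was at 57.4 CPM over all libraries and changed little (0.11). The strand setting of the counting is not known, so reads of both genes may not be fully separated. The light chain gene Slc7a8 lies in the same window as Slc7a7. There, 18 of the 55 genes other than Slc7a8 changed at least 2-fold in TRAP1 KO TCM against WT TCM (32.7%). For Slc1a5 the window of chromosome 7 from 15 to 20 Mb had 12 of 77 other genes changed at least 2-fold (15.6%), and for Slc7a5 and Slc1a4 the windows had 0 of 77 and 0 of 28. The part of the chromosomal position in the transporter values was not tested.

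**Figure D3:**
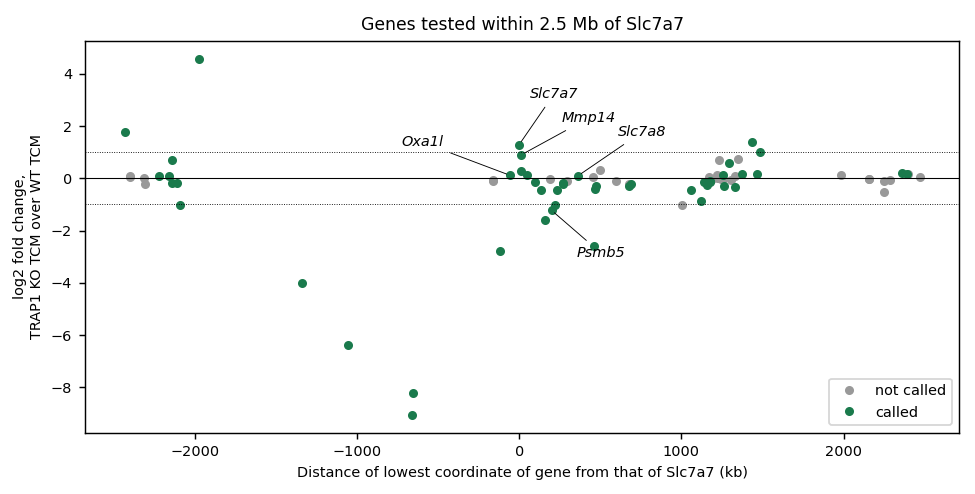
Log2 fold change, TRAP1 KO TCM over WT TCM, of each gene tested within 2.5 Mb of Slc7a7, against its distance in kb. Distance is between transcription starts of the genes on their own strands, although the axis label names the lowest coordinate. Called genes are in green, other genes in grey, and dotted lines mark a 2-fold change. Slc7a7 (1.29) and Mmp14 (0.90) lie above 0, Psmb5 (-1.23) lies below, and a few genes changed further in either direction.

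Of the 4 tested members of the cationic carrier group, 2 fell, 1 rose and 1, Slc7a3 (CAT3), was not called (-0.57, 95% interval -1.47 to 0.33). Slc7a1 was at 47.9, 51.8, 48.1 and 48.4 CPM in TRAP1 KO TCM, below the 62.4, 68.7 and 62.8 CPM in WT TCM (-0.39, SE 0.04, adjusted p = 2.4e-13). Slc7a2 was at 2.09, 1.43, 2.83 and 2.05 CPM in TRAP1 KO TCM, against 3.78, 5.24 and 4.44 CPM in WT TCM. The groups did not overlap (-1.09, SE 0.17, adjusted p = 3.4e-08). Slc7a4 (chromosome 16, 17572018 to 17583214) rose to 6.27 ± 0.698 CPM in TRAP1 KO TCM, against 4.09 ± 0.243 CPM in WT TCM (0.63, SE 0.15, adjusted p = 0.00039). Changed genes in the window around Slc7a4 were not counted, and the part of its position was not tested.

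Both ASCT exchangers fell. Slc1a5 (ENSMUSG00000001918, chromosome 7, 16781340 to 16798274) was at 17.7, 16.9, 15.6 and 17.9 CPM in TRAP1 KO TCM, against 31.2, 31.9 and 32.8 CPM in WT TCM. All knockout libraries lay near a common low level (-0.90, SE 0.07, 95% interval -1.03 to -0.77, adjusted p = 4.6e-22). Slc1a4 was at 8.35, 6.89, 7.90 and 5.99 CPM in TRAP1 KO TCM and at 9.89, 11.6 and 11.3 CPM in WT TCM, again without overlap (-0.57, SE 0.11, adjusted p = 7.1e-06). Slc38a2 fell to 113 ± 3.78 CPM in TRAP1 KO TCM, against 139 ± 3.13 CPM in WT TCM (-0.29, SE 0.03, adjusted p = 5.8e-14). Slc43a3 was at 8.99, 9.32, 10.2 and 11.4 CPM in TRAP1 KO TCM, all below the 16.1, 16.4 and 17.6 CPM in WT TCM (-0.73, SE 0.09, adjusted p = 1.0e-11). Slc6a8 (-0.24) and Slc6a6 (-0.25) fell as well.

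Smaller changes were seen in other members. Slc43a2 rose (0.12), as did Slc38a10 (0.08) and Slc38a1 (0.08), while Slc36a4 fell (-0.10). The Slc38a10 call was lost in the fit of all 16 libraries (adjusted p = 0.0893). The Slc38a1 call was lost in that fit (adjusted p = 0.0646), with DESeq2 (adjusted p = 0.0727) and without TRAP1 KO TCM replicate 2, WT TCM replicate 2 or WT TCM replicate 3 (adjusted p = 0.0712 to 0.304). The Slc36a4 call was lost with DESeq2 (adjusted p = 0.102), with no filter (adjusted p = 0.0540), with the replicate block (adjusted p = 0.257) and without TRAP1 KO TCM replicate 3 or 4 or any 1 of the WT TCM libraries (adjusted p = 0.0516 to 0.254). Slc6a20b, a gene of the SLC6 family, rose at a low level, with 0.659 ± 0.246 CPM in TRAP1 KO TCM and 0.273 ± 0.0816 CPM in WT TCM, 51 counts against 15 (1.22, SE 0.51, adjusted p = 0.032). That call was lost with DESeq2 (adjusted p = 0.0766), with no filter (adjusted p = 0.0732), with the replicate block (adjusted p = 0.117) and without WT TCM replicate 2 or 3 (adjusted p = 0.0833 and 0.123). Slc6a20b overlaps Sacm1l on the other strand, which was at 47.8 CPM. Slc38a7 was not called (0.04), but was without WT TCM replicate 1 (0.09, adjusted p = 0.0494). Fibroblast markers summed to 4.71 to 6.96 CPM in TRAP1 KO TCM and 0.166 to 0.404 CPM in WT TCM, with 3 of 3 tested genes higher. T cell markers summed to 17.99 to 20.1 CPM in TRAP1 KO TCM and 28.4 to 29.9 CPM in WT TCM, with 1 of 1 tested gene lower. Against the sum, Cd3e and Cd8a had 0 counts in WT TCM but had counts in TRAP1 KO TCM, and Cd3d had 0 counts in both. Neutrophil markers summed to 5.61 to 7.17 CPM in TRAP1 KO TCM and 7.80 to 9.71 CPM in WT TCM, with 1 of 7 higher and 2 lower. The part of these markers in the transporter values was not tested.

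**Figure D4:**
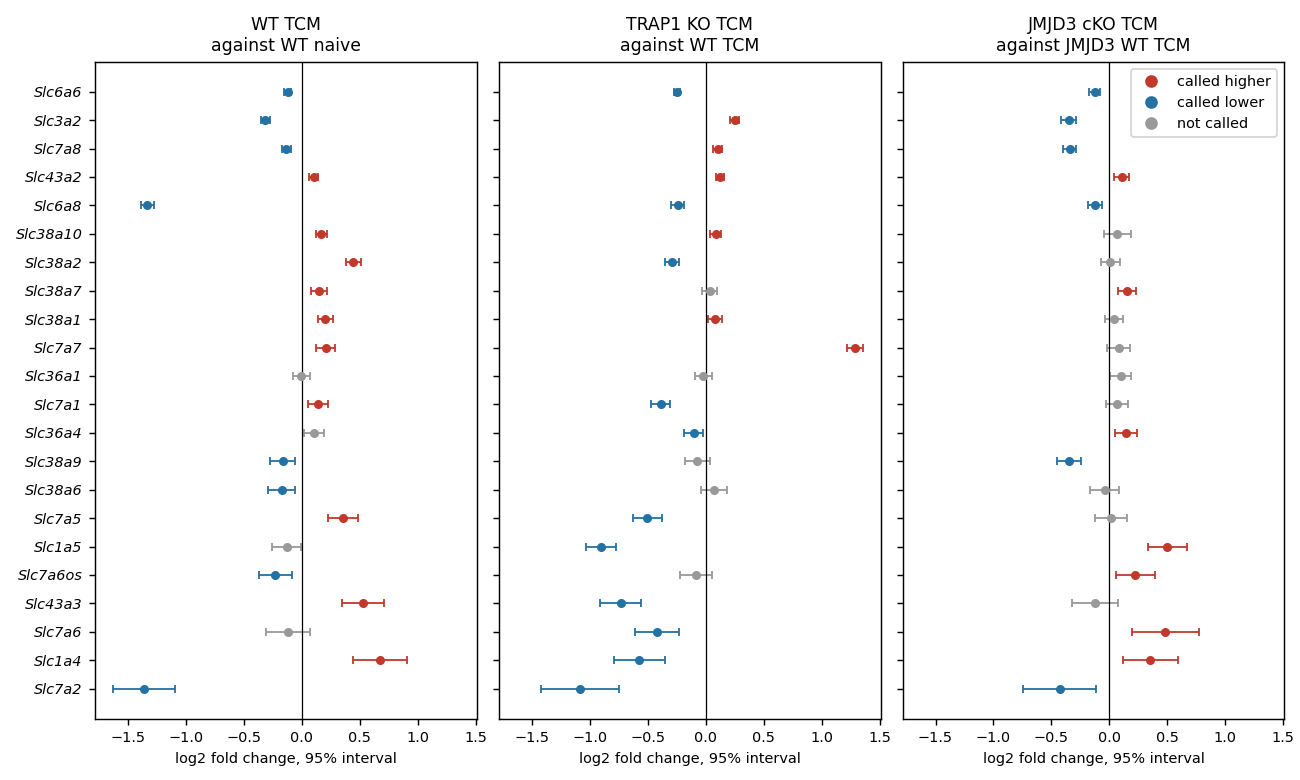
Log2 fold changes with 95% intervals of the 22 members with a mean of at least 5 CPM in the 3 main comparisons, in order of mean CPM, coloured by call. Slc6a8 (-1.33) and Slc7a2 (-1.36) stand at the low end in WT TCM against WT naive, Slc7a7 (1.29) at the high end in TRAP1 KO TCM against WT TCM, and all 22 lie between -0.43 and 0.50 in JMJD3 cKO TCM against JMJD3 WT TCM.

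The 250 bases before the RefSeq transcription start were searched, on both strands, for TGATGNAA, the core shared by sites that ATF4 and C/EBP proteins bind. RefSeq windows (GRCm38.p6) were found for 46 of the 64 members. The motif was in 4 of 67 windows of members, at Slc6a21, Slc7a11 and 2 of the 5 starts of Slc7a7, against 3.45% of 32851 windows of all genes. The windows of Slc7a11 and of 1 such start of Slc7a7 are given because these genes had the largest rise in WT TCM and in TRAP1 KO TCM among members, with the matches in capitals, 5′ to 3′ on the gene's own strand.
Slc7a11, chr3:50443614-50443863, minus strand: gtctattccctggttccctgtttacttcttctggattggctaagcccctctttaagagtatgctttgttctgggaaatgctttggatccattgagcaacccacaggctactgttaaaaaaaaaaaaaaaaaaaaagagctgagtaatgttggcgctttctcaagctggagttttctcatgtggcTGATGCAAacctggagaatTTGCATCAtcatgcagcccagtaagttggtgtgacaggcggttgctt
Slc7a7, chr14:54417945-54418194, minus strand: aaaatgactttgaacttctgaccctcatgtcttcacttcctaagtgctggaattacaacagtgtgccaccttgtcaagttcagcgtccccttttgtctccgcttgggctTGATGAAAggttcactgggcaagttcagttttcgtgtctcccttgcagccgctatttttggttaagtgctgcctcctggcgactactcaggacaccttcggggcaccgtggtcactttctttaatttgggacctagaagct
In Slc7a11 the matches begin at -66 on the gene's strand and at -47 on the other strand, counted from the start, and in Slc7a7 the match begins at -141. The windows of Slc1a4 and Slc38a2 held no match. CACGTG, the core of E-box sites, was in 9 of 67 member windows (13.4%), against 6.02% of all windows. TGACNNNGC, the core of antioxidant response sites, was also in 9 of 67 (13.4%), among them that of Slc38a2, against 10.2% of all windows. A match is a string of letters and not a measured binding site.

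JMJD3 cKO TCM was compared with JMJD3 WT TCM, its own line. Of 27 members tested, 7 rose and 6 fell, where 35.1% of all genes were called (17.3% higher and 17.8% lower). Only Slc1a5 passed an absolute log2 fold change of at least 0.5, where 7.86% of all genes did. Without JMJD3 cKO TCM replicate 3 the count of members that rose was 4. Slc1a5 was at 21.7, 20.7 and 23.8 CPM in JMJD3 cKO TCM, all above the JMJD3 WT TCM libraries at 15.6 ± 0.574 CPM (0.50, SE 0.08, adjusted p = 5.0e-06). Slc7a6 rose to 6.41 ± 0.249 CPM in JMJD3 cKO TCM, against 4.60 ± 0.364 CPM in JMJD3 WT TCM (0.48, SE 0.14, adjusted p = 0.0063).

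Slc3a2 was at 444, 467 and 471 CPM in JMJD3 cKO TCM, against 558, 604 and 609 CPM in JMJD3 WT TCM, a fall without overlap (-0.35, SE 0.03, adjusted p = 3.0e-12). Slc7a8 fell to 355 ± 2.68 CPM in JMJD3 cKO TCM, against 452 ± 15.9 CPM in JMJD3 WT TCM (-0.34, adjusted p = 1.6e-13). Slc38a9 was at 50.1, 52.2 and 54.0 CPM in JMJD3 cKO TCM and at 64.4, 64.3 and 71.0 CPM in JMJD3 WT TCM, also without overlap (-0.35, SE 0.05, adjusted p = 2.4e-07). Slc7a7, Slc7a5, Slc38a2 and Slc7a11 were not called, with intervals of -0.02 to 0.18 for Slc7a7, -0.13 to 0.15 for Slc7a5, -0.08 to 0.09 for Slc38a2 and -0.65 to 0.78 for Slc7a11.

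Other calls in the JMJD3 line were small or rested on single libraries. Slc6a6 (-0.13), Slc6a8 (-0.12) and Slc38a7 (0.15) held without any 1 library. Slc1a4 was at 9.41, 9.91 and 12.3 CPM in JMJD3 cKO TCM and 7.49, 9.08 and 8.36 CPM in JMJD3 WT TCM (0.35, adjusted p = 0.017), and its call was lost without JMJD3 cKO TCM replicate 3 (0.22, adjusted p = 0.214) or JMJD3 WT TCM replicate 1 (0.28, adjusted p = 0.0958). Slc7a2 was at 3.94 ± 0.202 CPM in JMJD3 cKO TCM and 5.34 ± 0.488 CPM in JMJD3 WT TCM (-0.43, adjusted p = 0.029), a call lost without JMJD3 cKO TCM replicate 2 or 3 or JMJD3 WT TCM replicate 2 (adjusted p = 0.0774 to 0.130). With all libraries, DESeq2 ended the calls of Slc7a2 (adjusted p = 0.0884) and Slc1a4 (adjusted p = 0.0721), as it did those of Slc36a4 (adjusted p = 0.0626) and Slc7a6os (adjusted p = 0.102). With no filter Slc7a2 was not called either (adjusted p = 0.0732), while Slc38a10 was (adjusted p = 0.0462). Slc43a2 (0.10) lost its call without JMJD3 cKO TCM replicate 3 or JMJD3 WT TCM replicate 3 (adjusted p = 0.108 and 0.0919). Slc36a4 (0.14) lost it without JMJD3 cKO TCM replicate 1 or 3 or JMJD3 WT TCM replicate 2 (adjusted p = 0.0611 to 0.0878), and Slc7a6os (0.22) without JMJD3 cKO TCM replicate 1 or JMJD3 WT TCM replicate 2 or 3 (adjusted p = 0.111 to 0.158). Slc38a10 (0.07) was called without JMJD3 WT TCM replicate 2 (0.13, adjusted p = 0.00608). Neutrophil markers summed to 44.4 to 47.9 CPM in JMJD3 cKO TCM and 30.8 to 34.5 CPM in JMJD3 WT TCM, with 4 of 6 tested genes higher and 1 lower. Dendritic cell markers summed to 3.29 to 4.44 CPM in JMJD3 cKO TCM and 7.42 to 9.77 CPM in JMJD3 WT TCM, with 1 of 1 tested gene lower. Macrophage markers summed to 12818 to 13198 CPM in JMJD3 cKO TCM and 16098 to 16523 CPM in JMJD3 WT TCM, with 3 of 8 genes higher and 5 lower. The part of these markers in the transporter values was not tested.

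The wild types also differed. JMJD3 WT TCM against WT TCM gave 8 members higher and 14 lower of 29 tested, where 61.3% of all genes were called (30% higher and 31.3% lower). At an absolute log2 fold change of at least 0.5, 5 were higher and 4 lower, a share near the 31.2% of all genes that were either. The median absolute log2 fold change was 0.28 over the tested members and 0.35 over all genes. Without WT TCM replicate 1 the count of higher members was 5. Slc6a8 was at 289, 290 and 290 CPM in JMJD3 WT TCM, against 132, 135 and 128 CPM in WT TCM (1.14, SE 0.03, adjusted p = 1.5e-55). Slc6a8 is X-linked, and line and sex differ together here. Slc3a2 had 590 ± 28.2 CPM in JMJD3 WT TCM, against 333 ± 1.32 CPM in WT TCM (0.83), and Slc38a9 had 66.6 ± 3.85 CPM in JMJD3 WT TCM, against 34.1 ± 1.19 CPM in WT TCM (0.97). Slc1a5 had 15.6 ± 0.574 CPM in JMJD3 WT TCM, against 31.9 ± 0.796 CPM in WT TCM (-1.03), Slc7a6 at 4.60 ± 0.364 and 11.7 ± 0.517 CPM (-1.35) and Slc7a11 at 0.914 ± 0.204 and 2.17 ± 0.227 CPM (-1.25) in the same order of groups. Slc7a4 had 0.894 ± 0.381 CPM in JMJD3 WT TCM, against 4.09 ± 0.243 CPM in WT TCM (-2.16), and Slc6a19, an intestinal and renal carrier, at 1.30 ± 0.646 CPM and 0.575 ± 0.221 CPM (1.22). The Slc6a19 difference rested on 61 against 30 counts (adjusted p = 0.0075). Its groups overlapped, since JMJD3 WT TCM replicate 2 at 0.693 CPM lay below WT TCM replicate 3 at 0.824 CPM. Whether that call held without each single library is not given here. Slc43a3 and Slc6a6 were not called between the lines (-0.07 and 0.01). Several smaller differences rested on single libraries. Slc7a5 (0.18) was not called without JMJD3 WT TCM replicate 2 or WT TCM replicate 1 (adjusted p = 0.378 and 0.134), nor was Slc38a7 (-0.11) without replicate 1 of either group (adjusted p = 0.0699 and 0.212). Slc38a6 (0.16) was not called without JMJD3 WT TCM replicate 1 or WT TCM replicate 1 or 2 (adjusted p = 0.0706 to 0.206), and Slc36a4 (-0.11) not without JMJD3 WT TCM replicate 2 or 3 or WT TCM replicate 1 or 3 (adjusted p = 0.0647 to 0.187), nor with RLE scaling, no filter or DESeq2 (adjusted p = 0.0668 to 0.141). Slc7a1 (0.08) was called without WT TCM replicate 2 (adjusted p = 0.0468). Neutrophil markers summed to 30.8 to 34.5 CPM in JMJD3 WT TCM and 7.80 to 9.71 CPM in WT TCM, with 7 of 7 tested genes higher. Dendritic cell markers summed to 7.42 to 9.77 CPM and 0.824 to 1.41 CPM in that order of groups, with 1 of 2 tested genes higher and 1 lower. Macrophage markers summed to 16098 to 16523 CPM in JMJD3 WT TCM and 26385 to 26832 CPM in WT TCM, with 3 of 8 genes higher and 5 lower. Their part in these differences was not tested.

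The difference between the genotype effects was tested in 1 fit of all 16 libraries, as the TRAP1 KO effect minus the JMJD3 cKO effect. It was called for 17 of 29 members, 4 above 0 and 13 below, where 37.9% of all genes were called (18.4% above and 19.5% below). At an absolute difference of at least 0.5, 2 were above and 6 below, where 15.3% of all genes were either. Slc7a7 had the largest positive difference (1.21, SE 0.06, adjusted p = 9.4e-34), followed by Slc3a2 (0.60) and Slc7a8 (0.44). Slc1a5 had the largest negative one (-1.40, SE 0.10, adjusted p = 1.3e-21), and it fell in TRAP1 KO TCM and rose in JMJD3 cKO TCM. Slc1a4 (-0.93) and Slc7a6 (-0.91) also fell in the first and rose in the second, the rise of Slc1a4 resting on the libraries named above. Slc7a5 (-0.52), Slc7a1 (-0.46), Slc43a3 (-0.61) and Slc38a2 (-0.30) fell with TRAP1 loss and were not called in the JMJD3 comparison. The Slc7a2 difference (-0.66) was lost without TRAP1 KO TCM replicate 2 (-0.51, adjusted p = 0.0737) or WT TCM replicate 2 (-0.53, adjusted p = 0.0810). That of Slc6a8 (-0.12) was lost without JMJD3 cKO TCM replicate 2 (adjusted p = 0.0525), and that of Slc7a6os (-0.31) without JMJD3 cKO TCM replicate 1 or WT TCM replicate 3 (adjusted p = 0.0550 and 0.0573). That of Slc38a7 (-0.12) was lost without JMJD3 WT TCM replicate 1, JMJD3 cKO TCM replicate 2 or 3, TRAP1 KO TCM replicate 1 or 3 or WT TCM replicate 1 (adjusted p = 0.0606 to 0.299), and with RLE scaling, no filter or DESeq2 (adjusted p = 0.0691 to 0.122).

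Genes of amino acid metabolism outside the families are given as context, by counts. Of 20 tested genes of the amino acid starvation response, 5 were higher and 14 lower in TRAP1 KO TCM than in WT TCM, or 95% of the list, where 42.2% of all genes were called (21.2% higher and 21% lower). The median log2 fold change was -0.33, against 0.01 for all genes. Phgdh, the first enzyme of serine synthesis, was at 2.28 ± 0.362 CPM in TRAP1 KO TCM and 7.51 ± 0.791 CPM in WT TCM (-1.71, adjusted p = 1.8e-17), and Psat1, the next, at 13.3 ± 0.743 and 23.5 ± 0.379 CPM (-0.81) in the same order. Psph, the last enzyme of that path, was called as higher (0.24, adjusted p = 0.0499). Atf4 itself (-0.34), the asparagine synthetase gene Asns (-0.33) and the mitochondrial folate enzyme gene Mthfd2 (-0.68) also fell. The lipoprotein receptor gene Vldlr (2.51), the mTORC1 inhibitor Ddit4 (0.63) and the leucine sensor Sesn2 (0.31) were among those that rose. The same list had 7 higher and 5 lower of 20 in WT TCM against WT naive, where 42.2% of all genes were called. It had 2 higher and 9 lower of 19 (57.9%) in JMJD3 cKO TCM against JMJD3 WT TCM, where 35.1% of all genes were called.

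Cytosolic aminoacyl-tRNA synthetases, which charge tRNAs and include several ATF4 targets, had 2 higher and 10 lower of 20 in TRAP1 KO TCM against WT TCM, where 42.2% of all genes were called. They had 7 higher and 2 lower in WT TCM against WT naive, a share of 45% that lies near the 42.2% of all genes. In JMJD3 cKO TCM against JMJD3 WT TCM 9 were higher and 3 lower, where 35.1% of all genes were called. The list of genes that sense amino acids upstream of mTORC1 shares Sesn2 with the starvation response. That list had 6 higher and 7 lower of 31 with TRAP1 loss, 3 higher and 10 lower of 31 with medium and 4 higher and 4 lower of 30 with JMJD3 loss. These shares of 41.9%, 41.9% and 26.7% lie near or below the 42.2%, 42.2% and 35.1% of all genes. The GTPase gene Rragd, a partner of Slc38a9 on lysosomes, was at 9.88 ± 0.802 CPM in TRAP1 KO TCM, 15.5 ± 0.507 CPM in WT TCM and 29.98 ± 1.30 CPM in WT naive, and was called as lower in TRAP1 KO TCM than in WT TCM (-0.64) and in WT TCM than in WT naive (-0.95). Of the enzymes of glutamine, glutamate and aspartate, 4 of 12 were higher and 6 lower with TRAP1 loss, 5 higher and 1 lower with medium, and 6 higher and 1 lower with JMJD3 loss, where 42.2%, 42.2% and 35.1% of all genes were called in that order. Glutamine synthetase, Glul, among the 4 higher with TRAP1 loss, was at 234 ± 3.47 CPM in TRAP1 KO TCM and 176 ± 3.21 CPM in WT TCM (0.42). Asns (-0.33) and Aldh18a1 (-0.35), which are also in the starvation response list, were among the 6 lower.

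Enzymes of arginine, polyamines and tryptophan are set beside the arginine carriers. In TRAP1 KO TCM against WT TCM, 4 of 9 tested were higher and 3 lower (77.8%), where 42.2% of all genes were called. The median log2 fold change of the list was 0.08. Among the 4 higher were the arginase gene Arg1 (3.59), the polyamine enzyme gene Odc1 (0.82) and the arginine synthesis gene Ass1 (0.64). Of the cationic carriers, Slc7a1 and Slc7a2 were lower and Slc7a4 (0.63) was higher, and the exporter Slc7a7 was higher. A link between these enzymes and the carriers was not tested. With medium 1 of 9 was higher and 3 lower, a share of 44.4% near the 42.2% of all genes. With JMJD3 loss, where 35.1% of all genes were called, 1 of 10 was higher and 4 lower, among them Nos2, the nitric oxide synthase (-1.68), at 11.4 ± 0.299 CPM in JMJD3 cKO TCM and 36.6 ± 1.504 CPM in JMJD3 WT TCM. Branched-chain and serine-glycine enzymes form a list that shares Phgdh, Psat1, Psph, Shmt2 and Cth with the starvation response. They had 1 higher and 4 lower of 10 with TRAP1 loss, where 42.2% of all genes were called. With medium and with JMJD3 loss alike 3 were higher and 0 lower of 10, where 42.2% and 35.1% of all genes were called. Amino acid and peptide transporters outside the families had 4 higher and 3 lower of 8 with TRAP1 loss, 2 higher and 4 lower with medium, and 0 higher and 3 lower with JMJD3 loss. The shares were 87.5%, 75% and 37.5%, against 42.2%, 42.2% and 35.1% of all genes, so that with JMJD3 loss the list lay near the share of all genes. The 4 higher with TRAP1 loss became 1 without WT TCM replicate 2 and 2 without TRAP1 KO TCM replicate 2. The 7 mTORC1 genes lower with TRAP1 loss became 4 without TRAP1 KO TCM replicate 4 or WT TCM replicate 3, the 3 higher with medium became 1 without WT naive replicate 2, and the 2 synthetases higher with TRAP1 loss became 1 without WT TCM replicate 3. The 1 branched-chain and serine-glycine enzyme higher with TRAP1 loss, Psph, became 0 without TRAP1 KO TCM replicate 1 or 4 or any 1 of the WT TCM libraries. With medium, the 1 higher arginine enzyme became 2 without WT naive replicate 1, and the 2 higher outside transporters became 1 without WT TCM replicate 1 or 2 or WT naive replicate 2 or 3. With JMJD3 loss, the 1 lower glutamine enzyme became 2 without JMJD3 cKO TCM replicate 3, the 1 higher arginine enzyme became 2 without JMJD3 WT TCM replicate 3, and the 0 lower branched-chain and serine-glycine enzymes became 1 without JMJD3 cKO TCM replicate 1.

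**Figure D5:**
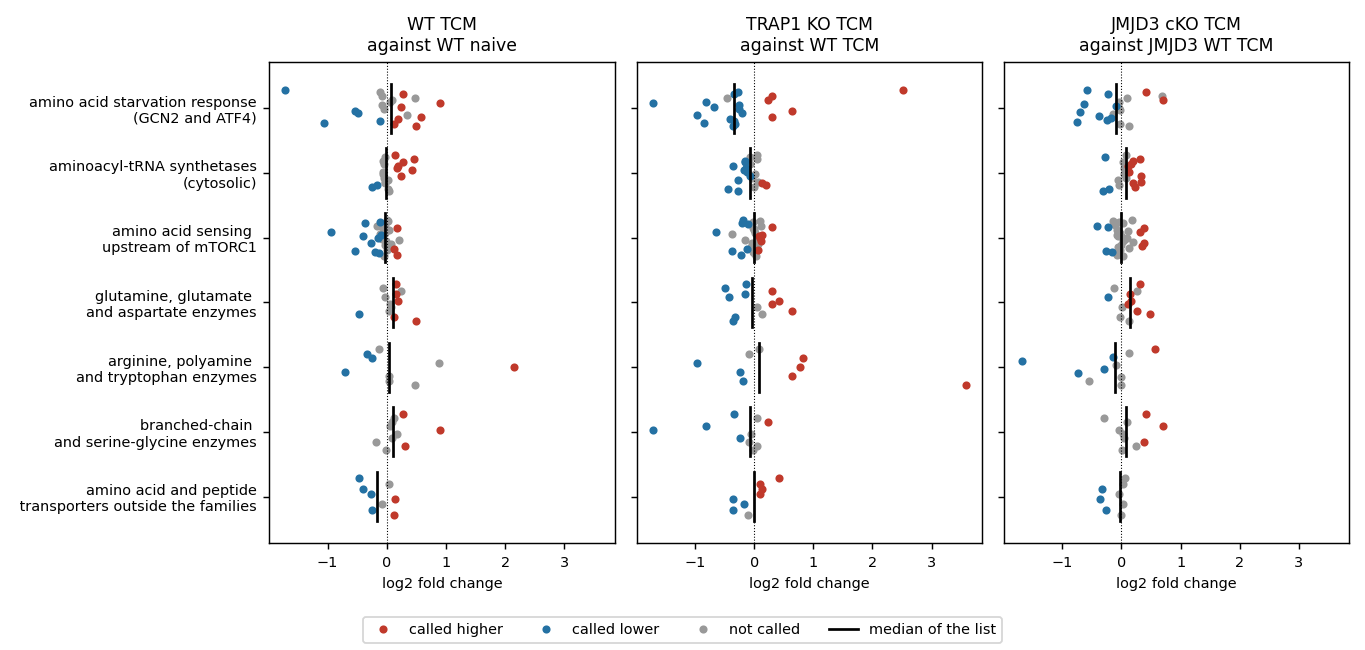
Log2 fold changes of the tested genes of 7 lists of amino acid genes outside the families in the 3 main comparisons, 1 point per gene, coloured by call, with a bar at the median of each list. In TRAP1 KO TCM against WT TCM most starvation response genes lie below 0 (median -0.33) and Arg1 (3.59) and Vldlr (2.51) lie far above.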

How the data were processed

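Total RNA of 16 macrophage libraries was depleted of ribosomal RNA and sequenced, per the labels' protocols. The authors deposited whole-number counts per gene and library, with no normalization. Tools listed, without version or role, in the submitters' processing notes are Bowtie2, HISAT, RSEM and StringTie, with the build mm10. The counter and its strand setting are not stated, and genes that overlap another on the opposite strand are uncertain. Symbols, biotypes and coordinates came from GENCODE M21, and 37 identifiers had no symbol there (up to 0.0036% of a library's counts).

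Counts were tested with edgeR 4.0.16 (R 4.3.3; TMM, filterByExpr with a minimum count of 10, robust quasi-likelihood fit), with Benjamini-Hochberg adjustment over all genes tested and a threshold of 0.05. The 10 libraries of the TRAP1 set, the 6 of the JMJD3 line and all 16 were fitted separately. The fits were tested on simulated data. Library totals of 15361604 to 22426820 counts limit precision for members under 1 CPM, and the floor of 3 counts covers counting error only.

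Members at a mean of at least 5 CPM were named where called in a main comparison, with library values at an absolute log2 fold change of at least 0.5, and those under 5 CPM at a change of at least 1. The main chains of the heteromeric exchangers, Slc1a5, Slc38a2 and Slc38a9 were named whatever their change. Slc36a1, Slc6a19, Slc7a3, Slc7a4 and Slc7a15, and the genes named from lists, were chosen after their values were seen. The members and lists were chosen with earlier results of these data known. Alternatives were DESeq2 1.42.0, RLE scaling, no filter, a fold threshold, a replicate block, 1 fit of all libraries and leaving out each library.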

Additional observations from a re-analysis of the deposited data

Results flagged for a closer look

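In the 4 TRAP1 KO TCM libraries, Slc7a1 was highest in replicate 2 at 51.8 CPM, apart from the 3 others, and Slc38a9 was lowest in replicate 4 at 31.6 CPM. Both gaps, taken over the range of the group, passed Dixon's critical value at the 95% level, which chance alone passes in some groups.

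The TRAP1 KO effect minus the JMJD3 cKO effect was called for 17 members (log2 scale, edgeR's quasi-likelihood test). It was above 0 for Slc7a7 (1.21), Slc3a2 (0.60), Slc7a8 (0.44) and Slc38a9 (0.27). It was below 0 for Slc1a5 (-1.40), Slc1a4 (-0.93), Slc7a6 (-0.91), Slc7a2 (-0.66), Slc43a3 (-0.61), Slc7a5 (-0.52), Slc7a1 (-0.46), Slc7a6os (-0.31), Slc38a2 (-0.30), Slc36a4 (-0.25), Slc6a6 (-0.13), Slc6a8 (-0.12) and Slc38a7 (-0.12). The genotypes belong to lines that differ in sex, so the difference between genotypes and that between lines cannot be told apart.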

How the results depend on the processing

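For named members, 1312 values under an alternative kept their direction and side of the threshold, 69 lost a call, 8 gained one and 0 reversed. At an absolute log2 fold change of at least 0.5, higher and lower members numbered 4 and 3 in WT TCM against WT naive, 3 and 5 in TRAP1 KO TCM against WT TCM, 1 and 0 in JMJD3 cKO TCM against JMJD3 WT TCM, 5 and 4 in JMJD3 WT TCM against WT TCM, and 2 and 6 for the difference of effects. DESeq2 called 4 members higher in JMJD3 cKO TCM, against 7 with edgeR. Leaving out 1 library at a time gave 4 to 7 there and 5 to 8 higher in JMJD3 WT TCM against WT TCM. For each, the cause was not tested. Other counts stayed within 1.5 times.

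Replicate numbers did not pair the libraries, as deviations of same-numbered libraries correlated at -0.0278 to 0.0202. With a replicate block, members called higher and lower were 13 and 9 in WT TCM against WT naive, 7 and 10 in TRAP1 KO TCM against WT TCM, and 7 and 6 in JMJD3 cKO TCM against JMJD3 WT TCM. Without the members in the Slc7a7 window, an alternative chosen after seeing the data, 6 rose and 11 fell in TRAP1 KO TCM. For lists, 58 of the counts moved by over 1.5 times and 796 did not.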
